A study of Mus musculus with 18 samples.

Results

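Purinergic signalling in synovial macrophages was examined through 10 genes, chosen by symbol among the 24421 gene symbols that the count tables list. They encode 6 receptors for extracellular nucleotides (*P2ry6*, *P2ry12*, *P2ry13*, *P2ry14*, *P2rx4* and *P2rx7*), 2 ectonucleotidases (*Entpd1* and *Nt5e*) and 2 receptors for adenosine (*Adora2a* and *Adora2b*). All 10 had counts, and 9 passed the filter on low counts that left 10550 genes for testing, with *Nt5e* falling below it. The RNA came from macrophages of wild-type C57BL/6 mice (by the study's general methods adults of both sexes on a C57BL/6J background), sorted from digested synovium and sequenced in bulk. Cells were sorted into LYVE1+CX3CR1+ macrophages, gated as negative for MHCII, and into MHCII+CD11c- and MHCII+CD11c+ macrophages. Mice were left untreated or were given immune complexes (IC), made of ovalbumin and rabbit antibody to ovalbumin, into a vein 8 h earlier. Each of the 6 groups had 3 libraries, 18 in all, and each library held cells pooled from several mice, so no value belongs to 1 animal. The study counts separate mice for each library of a population, so the libraries of a group are separate pools, while whether subsets were sorted from the same pool is not given in the sources used here.

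ATP and other nucleotides leave cells that are stressed, damaged or activated and act on neighbouring cells through P2X receptors, which are ion channels opened by ATP, and P2Y receptors, which are coupled to G proteins. CD39, encoded by *Entpd1*, removes phosphates from ATP and ADP to give AMP, and CD73, encoded by *Nt5e*, turns AMP into adenosine, which acts on receptors of its own. Macrophages use this system to sense nearby damage, and P2X7 is best known for driving release of IL-1β. *P2ry12* is known as the ADP receptor of platelets and as a marker of resting microglia, the macrophages of the brain.

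Library totals ran from 245903 to 2172358 counts, and levels are given as CPM, a gene's counts relative to its library's total as adjusted by edgeR's TMM factors. The floor used here, 3 counts in a library, corresponded to 1.43 to 11.2 CPM. MHCII+CD11c- replicates 1 and 2 after IC were the smallest libraries, at 381217 and 245903 counts. Transcripts of the sorted proteins followed the labels in untreated mice, with *Lyve1* at 2361 ± 196 CPM (SD, n = 3), 792 ± 89.8 and 376 ± 55.8, *H2-Ab1* at 20.2 ± 0.204, 4601 ± 102 and 7126 ± 604, and *Itgax* (CD11c) at 1.70 ± 2.08, 5.99 ± 6.26 and 268 ± 32.0 CPM in LYVE1+CX3CR1+, MHCII+CD11c- and MHCII+CD11c+ macrophages. All 7 macrophage markers examined were present in every group. Transcripts of other cells differed between groups. The summed level of 6 B cell markers was 0 to 1.61 CPM in untreated LYVE1+CX3CR1+ libraries, 213 to 306 CPM in MHCII+CD11c- and 66.0 to 103 CPM in MHCII+CD11c+ libraries. Among untreated libraries 9 neutrophil markers summed to 0.624 to 8.58, 504 to 1240.4 and 4.58 to 532 CPM in the same order, and after IC to 1.12 to 106, 1143 to 3164 and 774 to 1834 CPM. Dendritic cell markers, 7 in all, summed to 6.97 to 9.36, 111 to 156 and 241 to 438 CPM in untreated libraries and to 2.10 to 3.93, 52.1 to 90.7 and 186 to 202 CPM after IC, lower without overlap in each subset. Mast cell markers, also 7, summed to 1.07 to 53.0, 6.08 to 212 and 8.37 to 85.7 CPM in untreated libraries and to 0 to 32.5, 118 to 502 and 46.1 to 269.8 CPM after IC. B cell markers after IC summed to 0 to 2.10, 237 to 382 and 78.3 to 102 CPM in the same order. Their sums and those of mast cell markers overlapped between treatments in each subset. Neutrophil markers did so in LYVE1+CX3CR1+ and MHCII+CD11c- but not in MHCII+CD11c+ libraries. The part of the transcripts of these 4 cell types in the values below was not tested. Monocyte markers summed to 2216 to 3945 CPM over the 18 libraries and those of Schwann cells to 224 to 882 CPM, highest in untreated LYVE1+CX3CR1+ libraries. Muscle markers summed to at most 132 CPM, endothelial markers to 95.9 and T and NK cell markers to 25.6 CPM.

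The genes of the ADP receptors and of the UDP-glucose receptor lie next to each other. In GRCm38, *P2ry14* (chromosome 3, 59113855 to 59153618), *P2ry13* (59207892 to 59210882) and *P2ry12* (59216272 to 59262871) follow one another on the minus strand, 54273 and 5389 bases apart, inside the span of *Med12l* on the opposite strand, with no exon shared. *P2rx7* (chromosome 5, 122643911 to 122691432) and *P2rx4* (122707544 to 122729738) are also neighbours, 16111 bases apart on the plus strand. The other members stand alone, *P2ry6* on chromosome 7 (100937630 to 100974649, minus strand), *Entpd1* on 19 (40612366 to 40741602), *Nt5e* on 9 (88327197 to 88372092), *Adora2a* on 10 (75316877 to 75334784) and *Adora2b* on 11 (62248984 to 62266453), the last 4 on the plus strand.

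*P2ry12* and *P2ry13*, both ADP receptor genes, carried the steepest differences between subsets among the 6 nucleotide receptors, so the 250 bases before their RefSeq transcription starts (GRCm38.p6, minus strand) are shown, 5′ to 3′, with matches to AGGAAG in capitals. These letters, searched on both strands and picked after the sequences had been seen, contain the core that ETS factors such as the macrophage factor PU.1 bind.
P2ry12, chr3:59262986-59263235: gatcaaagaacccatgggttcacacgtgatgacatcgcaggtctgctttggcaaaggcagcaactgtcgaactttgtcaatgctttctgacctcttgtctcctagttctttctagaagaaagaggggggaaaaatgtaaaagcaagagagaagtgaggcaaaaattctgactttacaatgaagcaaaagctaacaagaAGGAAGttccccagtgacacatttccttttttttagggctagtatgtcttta
P2ry13, chr3:59210883-59211132: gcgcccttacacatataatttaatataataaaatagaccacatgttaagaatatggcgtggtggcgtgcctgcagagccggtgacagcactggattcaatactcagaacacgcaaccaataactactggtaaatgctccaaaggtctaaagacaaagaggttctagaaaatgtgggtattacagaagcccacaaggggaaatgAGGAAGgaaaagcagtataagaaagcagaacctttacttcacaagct
The match lay 47 bases before the start of *P2ry12* and 42 bases before that of *P2ry13*, on the strand of the gene in both. *P2ry14*, whose level did not follow theirs, had a match 15 bases before 1 of its starts. Away from this cluster, *P2rx7* had a match 125 bases before 1 of its starts, and *Entpd1* had matches 221 and 217 bases before 1 of its own. *P2rx4*, *Nt5e* and *Adora2b* had no match. AGGAAG or its reverse complement was found in 29.5% of the 32851 promoter windows of this length, so a match is common and is given as a description only.

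**Figure D1:**
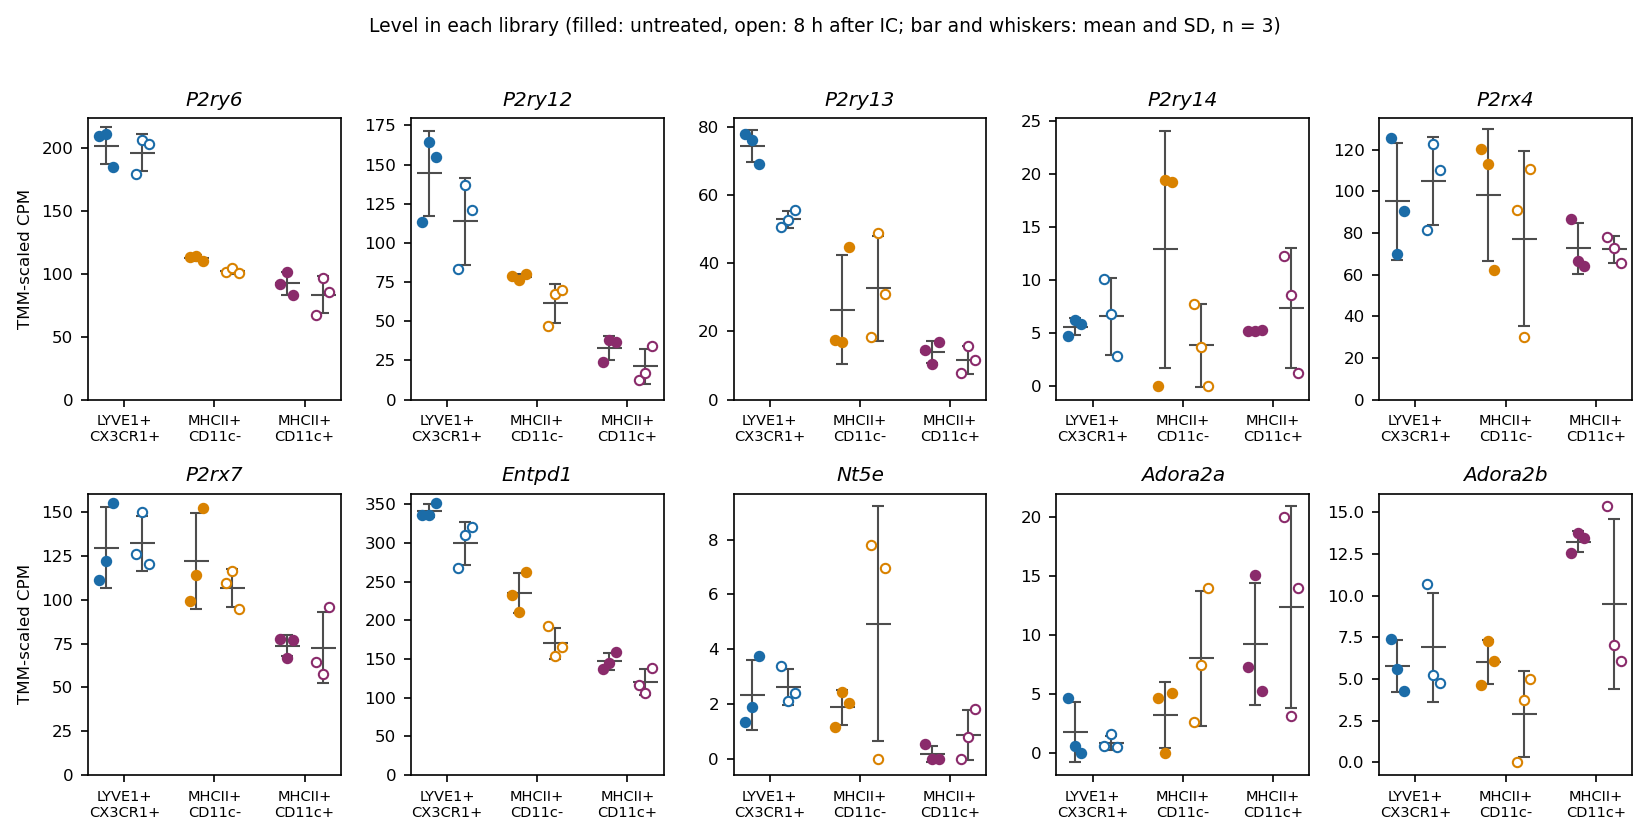
TMM-scaled CPM of the 10 genes in each of the 18 libraries, with a separate vertical scale for each gene; filled points are untreated and open points are from mice 8 h after IC, and bars with whiskers are the mean and SD of 3 libraries. *P2ry6*, *P2ry12*, *P2ry13* and *Entpd1* were highest in LYVE1+CX3CR1+ libraries, with no library of the other subsets reaching them within a treatment, and *Nt5e* did not exceed 7.81 CPM.

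Among receptors for uracil nucleotides, *P2ry6*, the receptor for UDP, was the one with ample reads. In untreated mice it stood at 209, 211 and 185 CPM in the LYVE1+CX3CR1+ libraries, at 113, 114 and 109.8 CPM in MHCII+CD11c- and at 92.0, 101 and 83.5 CPM in MHCII+CD11c+ libraries. Every LYVE1+CX3CR1+ library lay above every other library, and the 2 MHCII+ subsets lay close together without overlapping. By edgeR's quasi-likelihood test over all genes with Benjamini-Hochberg adjustment, used for every adjusted p here, *P2ry6* was higher in LYVE1+CX3CR1+ by 0.84 on the log2 scale than in MHCII+CD11c- macrophages (SE 0.17, adjusted p = 0.00121) and by 1.13 than in MHCII+CD11c+ macrophages (SE 0.16, adjusted p = 8.71e-06). These comparisons share the LYVE1+CX3CR1+ libraries and are not independent of each other. In bulk RNA, fewer cells that carry a transcript and less of it per cell cannot be told apart.

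*P2ry14*, the receptor for UDP-glucose, had few reads. Its levels were 4.70, 6.24 and 5.90 CPM in untreated LYVE1+CX3CR1+ libraries and 5.23, 5.23 and 5.28 CPM in MHCII+CD11c+ libraries. The untreated MHCII+CD11c- libraries split, at 0, 19.5 and 19.3 CPM, where the first had 0 of 882944 counts, which allows up to 3.47 CPM, and the others 16 and 19 counts. No comparison of *P2ry14* passed the test, and the 95% interval of its log2 fold change between LYVE1+CX3CR1+ and MHCII+CD11c+ macrophages, -1.70 to 1.89, was too wide to show that they were alike.

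*P2ry12* and *P2ry13*, the receptors for ADP, were higher in LYVE1+CX3CR1+ macrophages than in either other subset. *P2ry12* stood at 113, 165 and 155 CPM in untreated LYVE1+CX3CR1+ libraries, at 78.6, 76.6 and 80.3 CPM in MHCII+CD11c- and at 24.1, 37.9 and 36.9 CPM in MHCII+CD11c+ libraries. The 3 subsets formed separate steps with no overlap. Over MHCII+CD11c- macrophages the excess of LYVE1+CX3CR1+ was 0.88 (SE 0.26, adjusted p = 0.0261) and over MHCII+CD11c+ macrophages 2.13 on the log2 scale (SE 0.27, adjusted p = 1.05e-06), and MHCII+CD11c+ lay below MHCII+CD11c- macrophages (log2 fold change -1.25, SE 0.28, adjusted p = 0.00882). The smallest of these differences lost its call when any of 5 libraries was left out, namely MHCII+CD11c- replicates 1, 2 or 3 or LYVE1+CX3CR1+ replicates 2 or 3 of the untreated mice, with adjusted p up to 0.108 over its alternatives. The step between the MHCII+ subsets lost its call without MHCII+CD11c+ replicate 1 only, at an adjusted p of 0.0634.

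*P2ry12* is a platelet gene as well, so platelet markers were set beside it. The 8 platelet markers summed to 176 to 366 CPM in untreated LYVE1+CX3CR1+ libraries, where *P2ry12* was highest, against 304 to 533 CPM in MHCII+CD11c- and 146 to 349 CPM in MHCII+CD11c+ libraries. *Gp9* and *Gp6* were at 0 counts in all untreated libraries. *Gp1ba* and *Treml1* were at 0 in the untreated MHCII+ libraries and each had 1 count in 1 LYVE1+CX3CR1+ library. The part of platelet RNA in the *P2ry12* reads was not tested.

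*P2ry13* stood at 77.8, 76.1 and 69.1 CPM in untreated LYVE1+CX3CR1+ libraries, at 17.3, 17.02 and 44.7 CPM in MHCII+CD11c- and at 14.6, 10.5 and 16.8 CPM in MHCII+CD11c+ libraries. LYVE1+CX3CR1+ libraries were the highest, while 1 MHCII+CD11c- library lay between them and the rest. The log2 fold change of LYVE1+CX3CR1+ macrophages was 1.47 over MHCII+CD11c- (SE 0.33, adjusted p = 0.00382) and 2.39 over MHCII+CD11c+ macrophages (SE 0.33, adjusted p = 4.77e-06), and both kept their call whichever library was left out. The MHCII+ subsets gave -0.92 (MHCII+CD11c+ over MHCII+CD11c-, SE 0.36, adjusted p = 0.188), which did not pass.

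The ATP-gated channels behaved otherwise. *P2rx4* stood at 125, 69.9 and 90.6 CPM in untreated LYVE1+CX3CR1+ libraries, at 120.2, 113 and 62.0 CPM in MHCII+CD11c- and at 86.8, 66.7 and 64.3 CPM in MHCII+CD11c+ libraries. All 3 groups overlapped, and no comparison of *P2rx4* passed the test. The difference between LYVE1+CX3CR1+ and MHCII+CD11c- macrophages was -0.04 with a 95% interval of -0.64 to 0.55 on the log2 scale.

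*P2rx7* stood at 111, 122 and 155 CPM in untreated LYVE1+CX3CR1+ libraries and at 99.4, 114 and 152 CPM in MHCII+CD11c- libraries, which overlapped. MHCII+CD11c+ libraries were lower, at 77.4, 66.7 and 76.8 CPM, and overlapped neither. Against MHCII+CD11c+, LYVE1+CX3CR1+ macrophages were higher by 0.82 on the log2 scale (SE 0.21, adjusted p = 0.00455), whichever library was left out. The difference of MHCII+CD11c+ from MHCII+CD11c- macrophages, -0.73 (SE 0.21, adjusted p = 0.0553), was just outside the threshold and passed it in 9 of 28 alternatives, DESeq2 among them, with adjusted p from 0.0215 to 0.288. Between LYVE1+CX3CR1+ and MHCII+CD11c- macrophages the interval was -0.34 to 0.51. The exon of *P2rx7* that holds *Mir8115* shares 119 bases with it, and reads there could fall to either.

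*Entpd1*, which encodes CD39, had the most reads of the 10 genes. It stood at 337, 337 and 352 CPM in untreated LYVE1+CX3CR1+ libraries, at 232, 210.3 and 262 CPM in MHCII+CD11c- and at 138, 145 and 159 CPM in MHCII+CD11c+ libraries. As for *P2ry12*, the subsets formed 3 steps without overlap. The log2 fold change of LYVE1+CX3CR1+ macrophages was 0.54 over MHCII+CD11c- (SE 0.16, adjusted p = 0.0228) and 1.21 over MHCII+CD11c+ macrophages (SE 0.16, adjusted p = 1.53e-06), and that of MHCII+CD11c+ over MHCII+CD11c- macrophages was -0.68 (SE 0.16, adjusted p = 0.0138). The first was lost without any of 5 untreated libraries (MHCII+CD11c- replicates 1 or 2, LYVE1+CX3CR1+ replicates 1, 2 or 3), with adjusted p up to 0.107, and the last without MHCII+CD11c+ replicates 1 or 2 or MHCII+CD11c- replicate 3, up to 0.0995. The second held throughout.

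*Nt5e*, which encodes CD73, was close to the floor. Untreated LYVE1+CX3CR1+ libraries had 2, 3 and 7 counts (1.34, 1.87 and 3.75 CPM), MHCII+CD11c- libraries 1, 2 and 2 counts (1.16, 2.43 and 2.03 CPM) and MHCII+CD11c+ libraries 1, 0 and 0 counts (0.523, 0 and 0 CPM). It was too low to enter the test. Summed over 3 libraries, 12 of 4853398 counts in LYVE1+CX3CR1+ and 1 of 5743849 in MHCII+CD11c+ macrophages gave a ratio of 14.2, with an exact 95% interval of 2.10 to 607 that covers counting error only. After IC the same ratio was 2.34 (0.745 to 9.68). The ratio of LYVE1+CX3CR1+ to MHCII+CD11c- macrophages was 1.34 (0.439 to 4.85) in untreated mice and 0.417 (0.175 to 1.04) after IC, and these 3 intervals include 1. That of MHCII+CD11c- to MHCII+CD11c+ macrophages was 10.6 (1.19 to 502) in untreated mice and 5.61 (1.62 to 24.5) after IC. Both intervals lie above 1 but rest on 5 against 1 and 10 against 4 counts. CD73 is also carried by fibroblasts. In untreated LYVE1+CX3CR1+ libraries 9 fibroblast markers summed to 32.4 to 642 CPM with a median of 33.2. In MHCII+CD11c+ libraries these markers summed to 31.9 to 74.5 CPM with a median of 53.3. Their part in the *Nt5e* reads was not tested.

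The adenosine receptors, both of the kind that raises cyclic AMP, had few reads. *Adora2a* stood at 4.70, 0.624 and 0 CPM (7, 1 and 0 counts) in untreated LYVE1+CX3CR1+ libraries, at 4.62, 0 and 5.08 CPM in MHCII+CD11c- and at 7.32, 15.0 and 5.28 CPM in MHCII+CD11c+ libraries. MHCII+CD11c+ libraries were the highest without overlap, but the log2 difference of -2.37 between LYVE1+CX3CR1+ and MHCII+CD11c+ macrophages (SE 0.96, adjusted p = 0.0826) did not pass. *Adora2b* stood at 7.38, 5.61 and 4.29 CPM, at 4.62, 7.29 and 6.10 CPM and at 12.6, 13.7 and 13.4 CPM in the same order. Here again MHCII+CD11c+ libraries lay above all others, at 21 to 28 counts each, with a log2 difference of -1.20 (SE 0.57, adjusted p = 0.154) for LYVE1+CX3CR1+ against MHCII+CD11c+ macrophages that did not pass.

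Over the members, 4 of the 9 tested were called between LYVE1+CX3CR1+ and MHCII+CD11c- macrophages of untreated mice, all higher in the former, where 11.4% of all genes tested were called (4.32% higher and 7.12% lower). Between LYVE1+CX3CR1+ and MHCII+CD11c+ macrophages 5 were called, all higher in the former, against a background of 21.8% (9.48% higher and 12.4% lower). Between the MHCII+ subsets 2 were called, both lower in MHCII+CD11c+ macrophages, against 3.49% (1.60% lower). Groups that did not overlap were found for 4, 7 and 7 members in these comparisons, where 28.9%, 41.3% and 22.4% of all genes tested did the same. The median log2 fold change of the members was 0.09, 0.82 and -0.68, and that of all genes tested -0.02, -0.02 and -0.01. The members and the gene lists below were chosen with earlier results of these data known. Their counts beside the shares over all genes are therefore a description and not a test of the set.

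**Figure D2:**
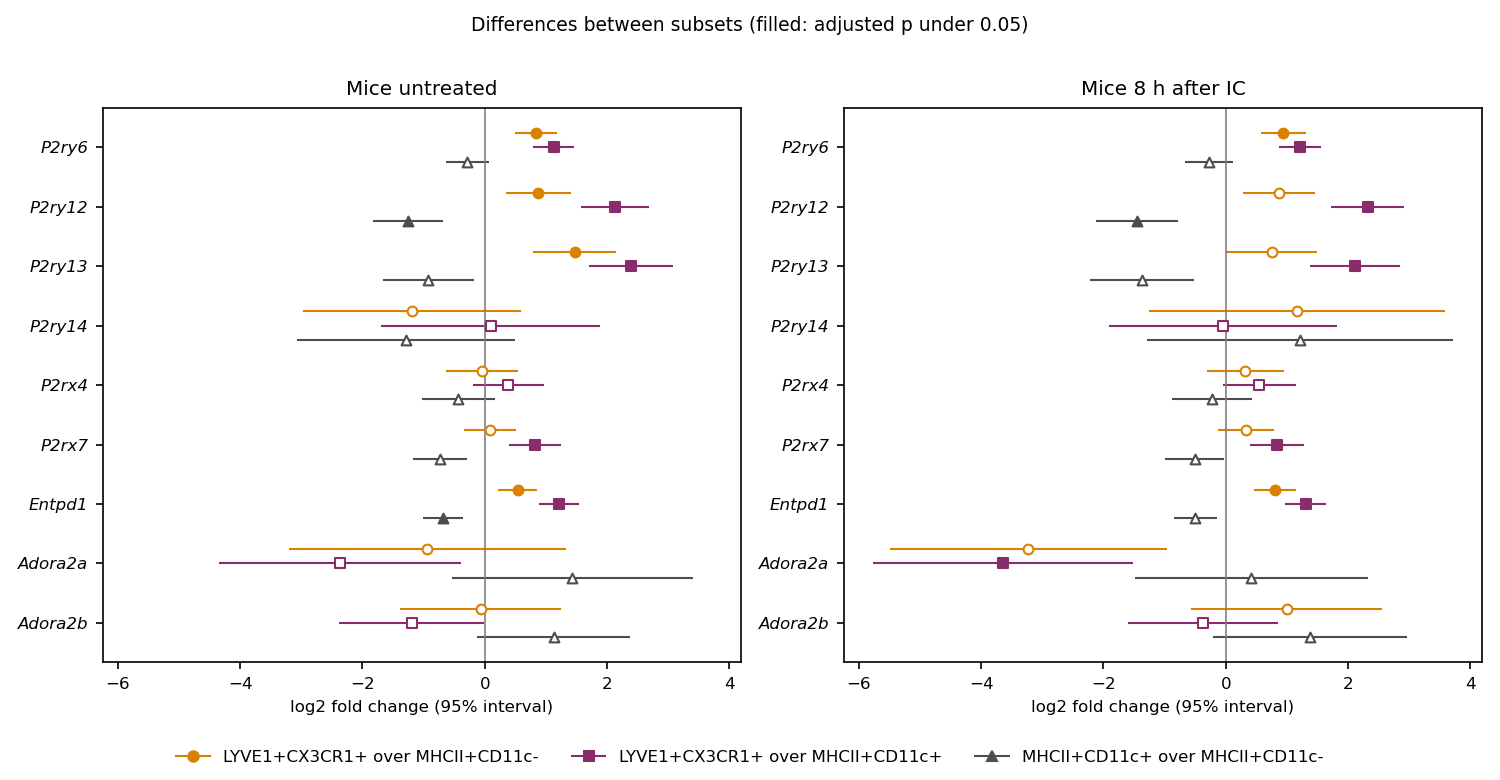
Log2 fold changes between subsets for the 9 genes tested, with 95% intervals, in untreated mice (left) and 8 h after IC (right); colours and shapes give the pair of subsets and filled symbols have an adjusted p under 0.05. *P2ry12* and *P2ry13* lay farthest to the right among LYVE1+CX3CR1+ over MHCII+CD11c+ differences, at 2.13 and 2.39 in untreated mice, while *Adora2a* and *Adora2b* lay to the left of 0.

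To compare genes with one another, levels were divided by exon length (CPM per kb of the merged exons in GENCODE). In untreated LYVE1+CX3CR1+ macrophages *P2ry6* led at 104 ± 7.48 CPM per kb (SD, n = 3), then *Entpd1* at 78.6 ± 1.96, *P2ry12* at 59.1 ± 11.2, *P2rx4* at 35.3 ± 10.4, *P2ry13* at 29.4 ± 1.82 and *P2rx7* at 23.5 ± 4.16. The next, *Adora2b*, stood at 3.12 ± 0.841 and *Nt5e* at 0.581 ± 0.317 CPM per kb. *P2rx4*, *P2ry13* and *P2rx7* lay within their spread of each other. In MHCII+CD11c+ macrophages *P2ry6* (47.4 ± 4.59), *Entpd1* (33.8 ± 2.48) and *P2rx4* (26.9 ± 4.57) led in level per kb, and *Adora2b* at 7.18 ± 0.333 stood beside *P2ry13* at 5.52 ± 1.27. In MHCII+CD11c- macrophages *P2ry6* at 57.8 ± 1.22 and *Entpd1* at 54.0 ± 5.99 CPM per kb did not differ beyond their spread.

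**Figure D3:**
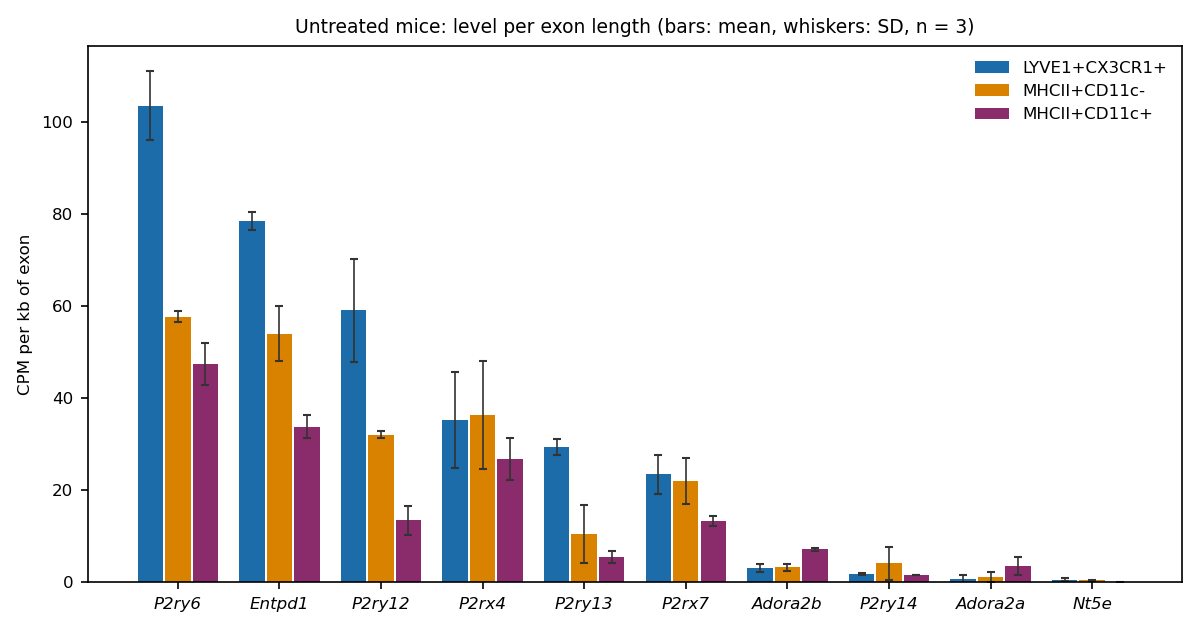
Level per kb of exon for the 10 genes in the 3 subsets of untreated mice, with bars for the mean and whiskers for the SD of 3 libraries, in the order of LYVE1+CX3CR1+ macrophages. Bars for *P2ry6*, *Entpd1*, *P2ry12* and *P2ry13* step down from LYVE1+CX3CR1+ to MHCII+CD11c+ macrophages, those for *P2rx4* overlap, and *Adora2b* is highest in MHCII+CD11c+ macrophages.

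In mice given IC the subsets were compared again. *P2ry6* stood at 179, 206 and 203 CPM in LYVE1+CX3CR1+, at 102, 105 and 101 CPM in MHCII+CD11c- and at 67.6, 97.0 and 85.5 CPM in MHCII+CD11c+ libraries. *Entpd1* stood at 268, 311 and 320.3, at 193, 154 and 165 and at 117, 106 and 139 CPM in the same order. For both genes the LYVE1+CX3CR1+ libraries stayed above all others, and the excess over MHCII+CD11c- macrophages was 0.94 on the log2 scale for *P2ry6* (SE 0.18, adjusted p = 0.000782) and 0.81 for *Entpd1* (SE 0.17, adjusted p = 0.00169). Without the 2 smallest libraries, which leaves 1 library in the MHCII+CD11c- group, taken to vary as the others do, the log2 differences of *P2ry6* and *Entpd1* were 0.995 and 0.891, at adjusted p of 0.0122 and 0.0131. They were the 2 members called in that comparison, with a background of 9.77% (3.32% higher).

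Against MHCII+CD11c+ macrophages after IC, 6 members were called, 5 higher and 1 lower, with a background of 19.7% (8.21% higher and 11.5% lower). *P2ry6* (1.21, SE 0.17, adjusted p = 5.65e-06), *P2ry12* (2.32, SE 0.29, adjusted p = 1.19e-06), *P2ry13* (2.12, SE 0.36, adjusted p = 8.25e-05), *P2rx7* (0.84, SE 0.21, adjusted p = 0.00488) and *Entpd1* (1.31, SE 0.16, adjusted p = 9.74e-07) were higher in LYVE1+CX3CR1+ macrophages. *Adora2a* was lower, at 1, 3 and 1 counts in LYVE1+CX3CR1+ libraries and 13, 4 and 23 counts in MHCII+CD11c+ libraries (0.562, 1.58 and 0.478 against 19.96, 3.13 and 13.9 CPM), with an adjusted p of 0.0121. No LYVE1+CX3CR1+ library of either treatment had more than 7 counts of *Adora2a*, so the gene passed the filter on low counts through MHCII+ libraries. Its call is given with that limit. Summed, 40 of 3592482 and 5 of 5758448 counts gave a ratio of 12.8 with an exact interval of 5.06 to 41.6 for counting error. The call was lost without MHCII+CD11c+ replicate 1 or LYVE1+CX3CR1+ replicates 1 or 3 after IC, with adjusted p up to 0.0591. Neutrophils and lymphocytes carry *Adora2a* too. Neutrophil and B cell markers summed to 774 to 1834 and 78.3 to 102 CPM in the MHCII+CD11c+ libraries after IC and to 1.12 to 106 and 0 to 2.10 CPM in the LYVE1+CX3CR1+ libraries, and their part in the *Adora2a* reads was not tested.

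*P2ry12* after IC stood at 83.2, 137 and 121 CPM in LYVE1+CX3CR1+, 46.9, 67.4 and 69.8 CPM in MHCII+CD11c- and 12.3, 17.2 and 33.9 CPM in MHCII+CD11c+ libraries, again in 3 steps. The difference between LYVE1+CX3CR1+ and MHCII+CD11c- macrophages, 0.87 (SE 0.28, adjusted p = 0.0532), fell just outside the threshold and passed it in 11 of 27 alternatives, with adjusted p from 0.0138 to 0.309. *P2ry12* was the 1 member called between the MHCII+ subsets after IC (-1.45, SE 0.32, adjusted p = 0.0107, background 2.84%, 1.07% lower), and it was lost without MHCII+CD11c+ replicates 1 or 2 or MHCII+CD11c- replicate 3, and with only the libraries compared, at adjusted p up to 0.147. *P2ry13* was at 50.6, 52.5 and 55.5 CPM in LYVE1+CX3CR1+ libraries, 18.2, 48.7 and 30.9 in MHCII+CD11c- and 7.68, 15.6 and 11.5 in MHCII+CD11c+ libraries, and the differences of MHCII+CD11c- macrophages from the other subsets did not pass (adjusted p = 0.204 and 0.0774).

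*P2rx7* after IC stood at 126, 150.2 and 120.5 CPM in LYVE1+CX3CR1+, 109, 116 and 94.7 CPM in MHCII+CD11c- and 64.5, 57.9 and 95.8 CPM in MHCII+CD11c+ libraries. LYVE1+CX3CR1+ libraries lay above all others, and the MHCII+ subsets overlapped. *P2rx4* stood at 81.5, 123 and 110.4, at 91.1, 29.97 and 111 and at 78.3, 72.7 and 65.5 CPM in the same order, where LYVE1+CX3CR1+ and MHCII+CD11c+ libraries did not overlap but their log2 difference of 0.55 (SE 0.29, adjusted p = 0.208) did not pass. *Adora2b* was low throughout, at 10.7, 5.25 and 4.78, at 0, 3.75 and 4.98 and at 15.4, 7.04 and 6.06 CPM. LYVE1+CX3CR1+ and MHCII+CD11c+ libraries overlapped here, with a log2 difference of -0.38 (95% interval -1.60 to 0.85).

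In the response to IC itself, no member was called in any of the 3 subsets by edgeR's or DESeq2's test, where 0.464% of genes tested were called in LYVE1+CX3CR1+, 1.06% in MHCII+CD11c- and 0.673% in the MHCII+CD11c+ subset. At an unadjusted p under 0.05, 1 member was found in MHCII+CD11c- macrophages (*Entpd1*) and 0 in the others. The log2 change of *P2ry6* was -0.04 (95% interval -0.37 to 0.29) in LYVE1+CX3CR1+, -0.14 (-0.52 to 0.24) in MHCII+CD11c- and -0.13 (-0.48 to 0.22) in MHCII+CD11c+ macrophages. That of *P2rx7* was 0.02 (-0.39 to 0.44), -0.22 (-0.69 to 0.25) and 0.00 (-0.46 to 0.46), and that of *P2rx4* 0.14 (-0.43 to 0.71), -0.23 (-0.87 to 0.42) and -0.02 (-0.62 to 0.58). The intervals of *Entpd1* were -0.50 to 0.12, -0.81 to -0.11 and -0.62 to 0.05. A change of 1 log2 unit in either direction, a doubling or halving, lay outside the intervals of these 4 genes in each subset. It lay inside the interval of *P2ry12* in MHCII+CD11c+ macrophages (-1.16 to 0.09) and inside those of *P2ry13* in each subset (-1.11 to 0.13, -0.58 to 1.03 and -1.02 to 0.58).

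**Figure D4:**
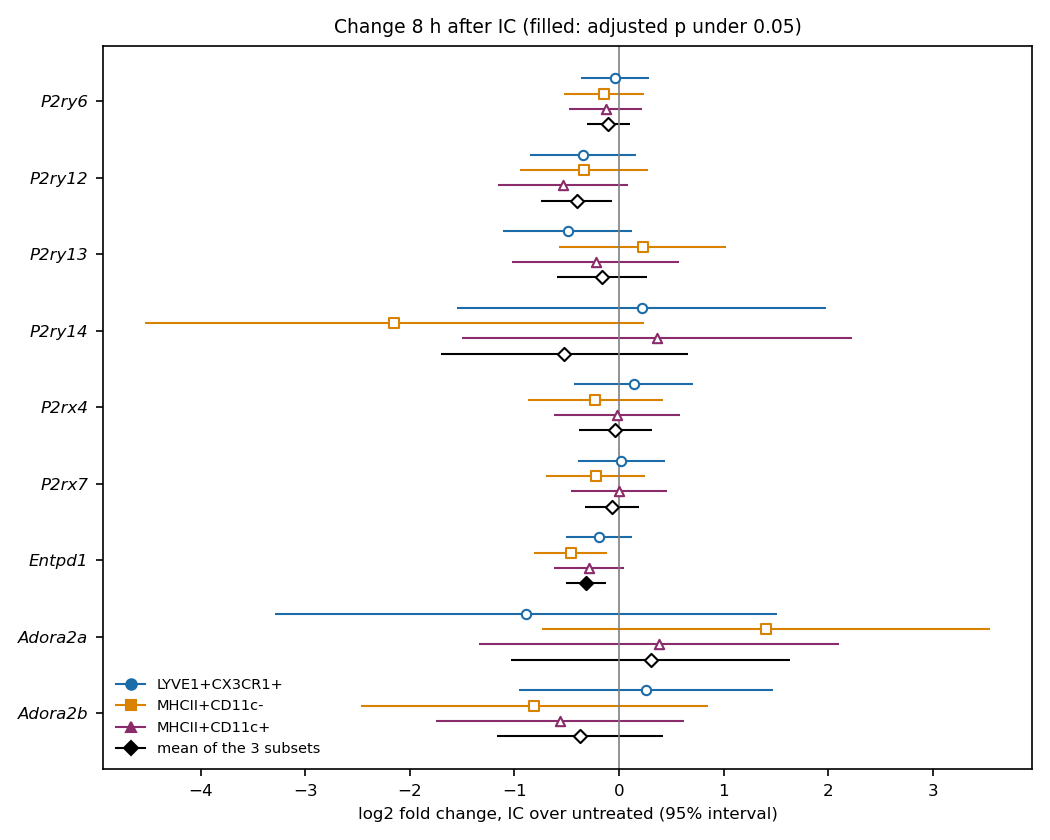
Log2 fold change 8 h after IC over untreated for the 9 genes tested, with 95% intervals, in each subset and for the mean of the 3 subsets (diamonds); filled symbols have an adjusted p under 0.05. Only the mean change of *Entpd1*, -0.31, is filled, and the intervals of *P2ry14* and *Adora2a* are the widest.

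*Entpd1* was the 1 member called when the 3 subsets' changes were averaged, a comparison in which 6.21% of genes tested were called (3.09% lower). Its mean log2 change was -0.31 (SE 0.09, adjusted p = 0.0432), the average of -0.19 in LYVE1+CX3CR1+ (SE 0.15), -0.46 in MHCII+CD11c- (SE 0.17) and -0.28 in MHCII+CD11c+ macrophages (SE 0.16), none of which passed by itself (adjusted p = 0.832, 0.182 and 0.630). The libraries after IC lay below all untreated ones in the first 2 subsets and overlapped with them in the third. The call was lost in 15 of 26 alternatives, with adjusted p from 0.0110 to 0.141 and the same sign in each. Of the 18 that left out 1 library it held in 5, those without untreated MHCII+CD11c+ replicate 1 or MHCII+CD11c- replicate 2 or without MHCII+CD11c- replicates 1 or 2 or MHCII+CD11c+ replicate 3 after IC, and was lost without any of the other 13. In the MHCII+ subsets dendritic cell markers summed to lower values after IC without overlap. Neutrophil markers summed to higher values without overlap in MHCII+CD11c+ libraries. In MHCII+CD11c- libraries the neutrophil sums overlapped, with a higher median after IC. The part of both kinds of marker-bearing cells in the lower *Entpd1* was not tested.

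*P2ry12* gave a mean change of -0.40 (SE 0.16, adjusted p = 0.158), with -0.34, -0.34 and -0.53 in LYVE1+CX3CR1+, MHCII+CD11c- and MHCII+CD11c+ macrophages, none of which passed. *P2ry13* libraries after IC lay below all untreated ones in LYVE1+CX3CR1+ macrophages (50.6 to 55.5 against 69.1 to 77.8 CPM), with a log2 change of -0.49 (SE 0.30, adjusted p = 0.722), and overlapped in the MHCII+ subsets. Groups that did not overlap were found for 2 of 9 members in LYVE1+CX3CR1+ macrophages (background 19.1%), for 3 in MHCII+CD11c- (14.2%) and for 0 in MHCII+CD11c+ macrophages (18.4%). The low genes could not be judged. *P2ry14* in MHCII+CD11c- macrophages went from 0, 16 and 19 counts to 3, 1 and 0 counts in smaller libraries, with a log2 change of -2.15 and an interval of -4.53 to 0.24. *Nt5e* after IC had 6, 4 and 5 counts in LYVE1+CX3CR1+, 3, 0 and 7 in MHCII+CD11c- and 0, 1 and 3 in MHCII+CD11c+ libraries.

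Whether the subsets differed in their response was tested directly, and 0 members were called in any of the 3 pairs by edgeR or DESeq2, with 0 at an unadjusted p under 0.05. Few genes of any kind were called there (0, 1 and 1 of 10550, or 0%, 0.00948% and 0.00948%). For *Entpd1* the difference between the changes of LYVE1+CX3CR1+ and MHCII+CD11c- macrophages was 0.27 with an interval of -0.20 to 0.74, and for *P2rx7* 0.25 with an interval of -0.38 to 0.88.

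The rest of the pathway was followed through 46 further genes in the tables, of which 29 were tested and 16 were called in at least 1 comparison. Between LYVE1+CX3CR1+ and MHCII+CD11c- macrophages of untreated mice 4 were higher in the former and 4 lower, where the shares over all genes were 4.32% and 7.12%. Against MHCII+CD11c+ macrophages 5 were higher and 6 lower, where the shares were 9.48% and 12.4%. The other nucleotide and adenosine receptors were scarce. *P2ry4*, all 5 other P2X receptor genes, *Adora1* and *Adora3* failed the filter, with at most 29 counts in any library (*Adora3*). *P2ry1*, a further ADP receptor, was highest where *P2ry12* and *P2ry13* were lowest, at 17.8 ± 5.88 CPM in MHCII+CD11c+, 4.66 ± 3.54 in MHCII+CD11c- and 2.31 ± 1.15 in LYVE1+CX3CR1+ macrophages, a log2 fold change of -2.93 between the last and the first (SE 0.77, adjusted p = 0.00636). The floor of these LYVE1+CX3CR1+ libraries was 1.61 to 2.01 CPM, so *P2ry1* was close to it there. Its call has the limit given for *Adora2a*.

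Of the other enzymes that act on nucleotides outside cells, 4 of 10 were tested, and each is given here. *Enpp1*, which splits ATP into AMP and pyrophosphate, followed *Entpd1* across subsets, at 90.2 ± 12.9 CPM in LYVE1+CX3CR1+, 30.7 ± 4.66 CPM in MHCII+CD11c- and 14.9 ± 10.2 CPM in MHCII+CD11c+ macrophages, and LYVE1+CX3CR1+ macrophages exceeded the other subsets by 1.55 (SE 0.33, adjusted p = 0.00205) and by 2.55 on the log2 scale (SE 0.33, adjusted p = 1.43e-06). With IC it went the other way from *Entpd1*, to 147 ± 18.4, 68.4 ± 3.93 and 31.3 ± 10.2 CPM, a mean log2 change of 0.94 (SE 0.19, adjusted p = 0.00345). *Cd38*, whose product consumes NAD, was lower in LYVE1+CX3CR1+ macrophages, at 2.37 ± 3.22, 17.8 ± 6.08 and 25.4 ± 9.17 CPM in the same order (adjusted p = 0.00409 and 0.000145), and rose with IC by 1.36 on average (SE 0.33, adjusted p = 0.0114). *Acpp*, an acid phosphatase that can make adenosine from AMP, stood at 1.07 ± 1.13 CPM in LYVE1+CX3CR1+ and 12.5 ± 9.05 in MHCII+CD11c+ macrophages after IC (adjusted p = 0.00394). *Enpp4*, a relative of *Enpp1*, stood at 11.2 ± 5.62 and 1.51 ± 2.10 CPM in the same libraries (adjusted p = 0.0256). *Cd38* and *Acpp* were near the floor in the LYVE1+CX3CR1+ libraries compared (1.61 to 2.01 CPM untreated, 1.43 to 1.69 CPM after IC). *Enpp4* was so in MHCII+CD11c+ libraries after IC (1.82 to 4.61 CPM). The calls of these genes between subsets have the limit given for *Adora2a*. Of the 4 intracellular NTPDase genes, *Entpd5* was called, at 30.8 ± 2.09 CPM in LYVE1+CX3CR1+ and 15.4 ± 0.652 CPM in MHCII+CD11c+ macrophages of untreated mice (adjusted p = 0.0433).

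Genes for adenosine uptake and removal were mixed, with 7 of 9 tested. *Slc29a1*, the plasma membrane nucleoside transporter ENT1, was higher in LYVE1+CX3CR1+ macrophages (107 ± 3.48 CPM) than in MHCII+CD11c- (60.0 ± 12.9, adjusted p = 0.0111) and MHCII+CD11c+ macrophages (68.4 ± 3.66, adjusted p = 0.0241), whereas *Slc29a3*, its lysosomal relative, was lower (66.6 ± 5.42 against 104 ± 3.01 and 166 ± 18.3 CPM, adjusted p = 0.0483 and 2.44e-05). *Pnp*, which breaks down inosine, rose with IC by 0.43 on average (SE 0.12, adjusted p = 0.0270). *Ada* and *Adk*, which dispose of adenosine, were not called in any comparison. Among 5 tested genes for nucleotide release, *Lrrc8a*, a subunit of volume-regulated anion channels, was higher in LYVE1+CX3CR1+ (142 ± 22.3 CPM) than in MHCII+CD11c- (83.8 ± 20.1, adjusted p = 0.0308) and MHCII+CD11c+ macrophages (71.4 ± 6.68, adjusted p = 0.00166), and *Panx1* was not called. *Ank*, a transporter linked to export of ATP and pyrophosphate, was lower in LYVE1+CX3CR1+ (117 ± 12.6 CPM) than in MHCII+CD11c+ macrophages (177 ± 4.15, adjusted p = 0.0158) and fell by 0.40 on the log2 scale with IC on average (SE 0.11, adjusted p = 0.0271). *Gja1*, which encodes connexin 43, stood at 23.1 ± 8.81 CPM in LYVE1+CX3CR1+ and 3.32 ± 5.75 in MHCII+CD11c- macrophages after IC (adjusted p = 0.0429). The latter group holds the 2 smallest libraries, with floors of 7.81 and 11.2 CPM, so its level of *Gja1* is poorly known.

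Of the 7 inflammasome genes that act after P2X7, 1 was higher and 2 were lower in untreated LYVE1+CX3CR1+ than in MHCII+CD11c+ macrophages, the comparison in which *P2rx7* was higher. Of all genes tested 9.48% were called higher and 12.4% lower there. *Il1b* was at 26.8 ± 13.7 CPM in untreated LYVE1+CX3CR1+, 147 ± 38.2 CPM in MHCII+CD11c- and 334 ± 65.0 CPM in MHCII+CD11c+ macrophages, so that LYVE1+CX3CR1+ macrophages differed by -2.43 from the former (SE 0.38, adjusted p = 7.30e-05) and by -3.62 on the log2 scale from the latter (SE 0.37, adjusted p = 4.61e-08). *Nlrp3*, the sensor, was lower in LYVE1+CX3CR1+ (85.0 ± 29.5 CPM) than in MHCII+CD11c- macrophages (177 ± 25.1, adjusted p = 0.00398), and *Nek7*, its partner, was higher (153 ± 14.4 against 96.3 ± 7.63 CPM, adjusted p = 0.0162). Against MHCII+CD11c+ macrophages *Nek7* was higher as well (93.0 ± 8.70 CPM there, adjusted p = 0.00360), *Pycard*, the adaptor, was lower (40.2 ± 5.84 against 78.1 ± 16.2 CPM, adjusted p = 0.0198) and *Nlrp3* was not called in untreated mice. *Casp1*, *Gsdmd* and *Il18* were not called in any comparison. With IC *Il1b* rose to 82.9 ± 38.5, 459.9 ± 203 and 543 ± 139.8 CPM, a mean log2 change of 1.33 (SE 0.20, adjusted p = 0.000116), while *P2rx7* gave a mean change of -0.07 (95% interval -0.32 to 0.19). Neutrophils express *Il1b* as well. The median sum of their markers rose with IC from 562 to 1309 CPM in MHCII+CD11c- and from 119 to 1226 CPM in MHCII+CD11c+ libraries. In LYVE1+CX3CR1+ libraries the sums before and after IC overlapped. Untreated MHCII+CD11c- libraries had the highest median of these markers, whereas *Il1b* was highest in MHCII+CD11c+ macrophages. The part of neutrophil RNA in the *Il1b* reads was not tested.

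**Figure D5:**
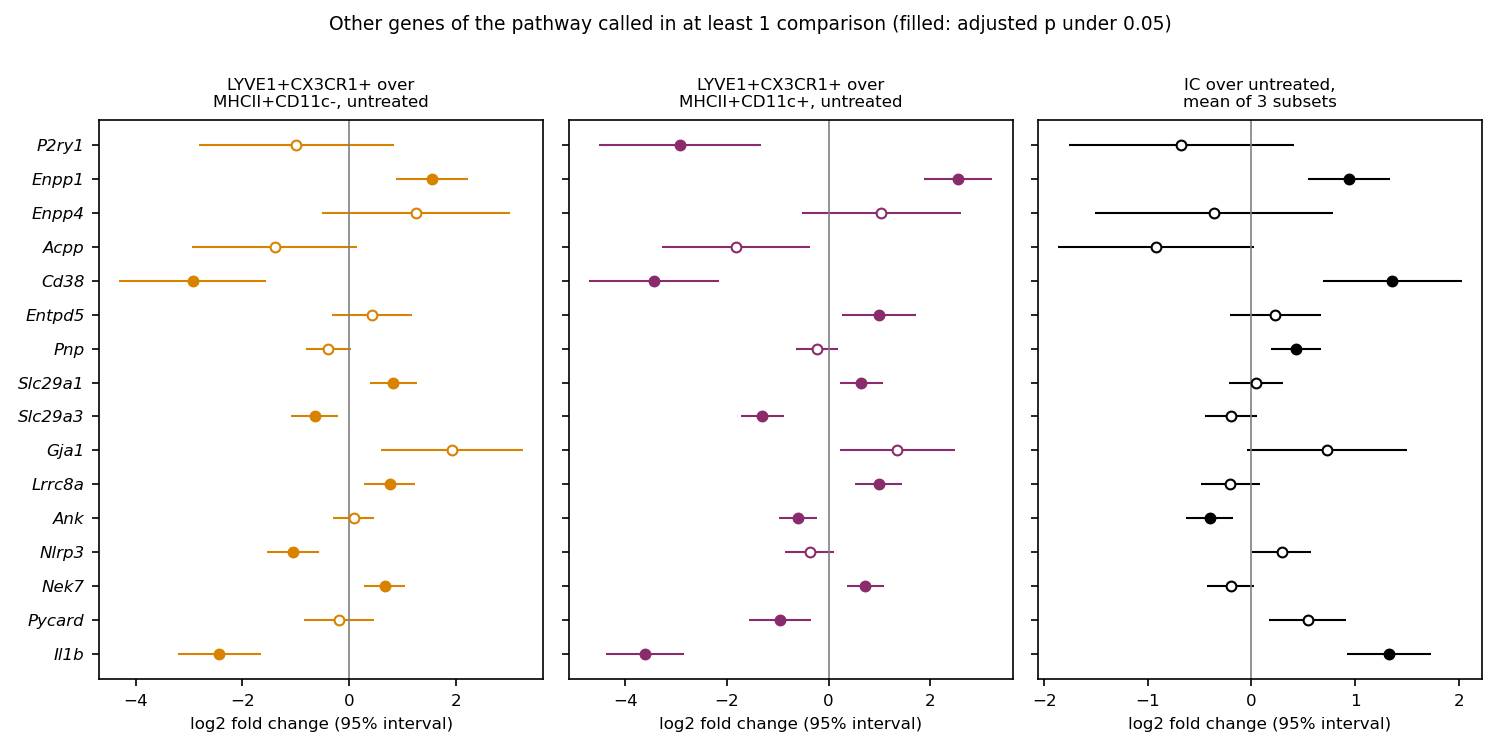
Log2 fold changes with 95% intervals of the 16 other pathway genes called in at least 1 comparison, for LYVE1+CX3CR1+ over MHCII+CD11c- and over MHCII+CD11c+ macrophages of untreated mice and for the mean change with IC; filled symbols have an adjusted p under 0.05. *Enpp1* lies to the right of 0 in all 3 panels, and *Cd38* and *Il1b* lie to the left in the first 2 panels and to the right in the third.

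Since *P2ry12* is used to recognise microglia, 10 genes known beside it there were listed, of which 8 were tested. *Gpr34* and *Olfml3* stepped down across the subsets as *P2ry12* did, for example *Gpr34* at 452 ± 17.4, 159.5 ± 27.2 and 51.5 ± 13.03 CPM, and each was called in all 3 comparisons of untreated subsets. *Fcrls* (56.5 ± 5.00, 456 ± 68.9 and 849 ± 222 CPM) and *Selplg* (106 ± 5.02, 203 ± 21.5 and 350.2 ± 23.2 CPM) stepped up in the same order and were called in the same comparisons. *Tmem119* and *Sall1*, which define microglia, failed the filter. Of the genes beside the cluster on chromosome 3, *Med12l*, which spans it, had at most 13 counts in a library, and *Gpr171* had 0 counts in all 6 LYVE1+CX3CR1+ libraries and up to 31 in the others.

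Taking all genes whose mean log2 CPM was 5 or more, those whose log2 CPM followed each member most closely over the 18 libraries were *Folr2* (Pearson's r = 0.955), *Serpinb6a* and *Adgre5* for *P2ry6*, *S1pr1* (0.952), *4931406P16Rik* and *Atp2a3* for *P2ry12*, *Lpcat2* (0.932), *Emp1* and *Pdlim7* for *P2ry13*, *Ldlrad4* (0.911), *Trp53inp2* and *Rhob* for *P2rx7*, and *Rin2* (0.954), *Abcc3* and *Fchsd2* for *Entpd1*. For *P2rx4* they were *Gnai2* (0.848), *Dnase2a* and *Plcb3*, for *Adora2a* *Was* (0.865), *Arhgap9* and *Plxnc1*, and for *Adora2b* *Tmem189* (0.884), *Mical1* and *Tomm20*. *P2ry14* had no close companion, the nearest being *Ociad1* (0.688), *Pdcd10* and *Nrf1*. Between members, r was 0.932 for *Entpd1* with *P2ry12*, 0.904 for *Entpd1* with *P2ry6* and 0.866 for *P2ry12* with *P2ry13*. With each group's mean removed, these values were 0.42, -0.14 and 0.26 over the same 18 libraries, which share depth and subset.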

How the data were processed

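RNA of 18 libraries was sequenced as total RNA (SMARTer stranded pico kit). The authors trimmed reads with Trim Galore, checked them with FastQC, aligned them to mm10 with HISAT2 and counted them per gene with featureCounts, and the deposited values are raw counts for each gene symbol, not normalized. Versions, annotation, strand setting and treatment of duplicate and multiply matching reads are not given in the sources used here, so counts of genes that overlap are uncertain and intervals and floors cover counting error only. A combined table held the same values and was not used.

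Scaling by TMM, CPM and log2 CPM (prior count 2) used edgeR 4.0.16 under R 4.3.3, and 10550 genes passed filterByExpr with a minimum count of 10 and a minimum total of 15. edgeR's two-sided quasi-likelihood test was fitted to all 18 libraries in 6 groups for 13 comparisons, with Benjamini-Hochberg adjustment over all genes tested and a threshold of 0.05. SE is the size of the log2 fold change over the square root of F. The tests were checked on simulated counts with 200 changed genes, 2-fold and 4-fold in equal number. There edgeR called 120 genes, of which 108 were changed genes in the right direction, 32 of them 2-fold and 76 of them 4-fold. Many true changes were thus missed, more so the 2-fold ones. In a comparison without changed genes it called 1. Ratios of summed counts have exact binomial 95% intervals. A gene with 3 counts or fewer in each library of a group was taken to be at the floor. Replicates were told apart by the labels only and differed beyond sampling noise (chi-square per gene at least 3.42).

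The 10 members and the gene lists were chosen with earlier results of these data known, the lists being written from general knowledge. All members are named. Other pathway genes are named where called in at least 1 comparison, and those never called or untested by count, except *P2ry4*, *Adora1*, *Adora3*, *Ada*, *Adk*, *Panx1*, *Casp1*, *Gsdmd*, *Il18*, *Tmem119*, *Sall1*, *Med12l*, *Gp9*, *Gp6*, *Gp1ba* and *Treml1*, which were named after their values were seen. A further gene of these lists is not reported here. Like genes are the 3 of highest r per member.

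Coordinates and exon lengths are from GENCODE M21 (GRCm38), matched for 10 of 10 members, and promoters from RefSeq (GRCm38.p6), matched for 8 of 10. Alternatives were DESeq2 size factors, DESeq2 1.42.0, no filter, at least 10 counts in every library, only the libraries compared, replicate blocks, 1 surrogate variable from sva 3.50.0, *Rn45s* left out, each library left out in turn and, chosen after seeing the data, the 2 smallest libraries left out.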

Additional observations from a re-analysis of the deposited data

How the results depend on the processing

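Of 3133 values of single members under alternatives, 3068 stayed on their side of the threshold, 36 lost their call and 29 gained one. No called difference changed sign, and 102 values of differences that were not called did, such as the *Adora2a* change with IC in LYVE1+CX3CR1+ macrophages, from -0.89 to 1.32 without their untreated replicate 1. The calls of *P2ry6*, *P2ry12*, *P2ry13*, *P2rx7* and *Entpd1* between LYVE1+CX3CR1+ and MHCII+CD11c+ macrophages, untreated and after IC, held under every alternative that tested them. With DESeq2's Wald test the members called after IC were 4 rather than 2 for LYVE1+CX3CR1+ against MHCII+CD11c- and 2 rather than 1 between the MHCII+ subsets. With no filter they were 4 for the former and 0 rather than 1 for the mean change with IC. With at least 10 counts in every library only 3 members were tested, and 2, 3, 3 and 0 were called for LYVE1+CX3CR1+ against MHCII+CD11c- untreated, against MHCII+CD11c+ untreated and after IC, and between the MHCII+ subsets after IC. With only the libraries compared the last was also 0. Leaving out 1 library gave 2 to 4 members for LYVE1+CX3CR1+ against MHCII+CD11c- untreated, 0 to 3 between the MHCII+ subsets untreated, 0 to 2 between them after IC and 0 to 2 for the mean change with IC. Without the 2 smallest libraries the mean change with IC had 0 members called (*Entpd1*, -0.31, adjusted p = 0.0591). Apart from the smaller number of members tested under the strict filter, the cause was not tested.

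It could not be shown that equal replicate numbers pair libraries. Deviations from the group means correlated at -0.05 to 0.13 over 18 pairs of the same number and treatment, 1 of them over 0.1, and 16 of 18 libraries were closest to one of their own number, a hint from the data that no label states. With the replicate number as a block, or number and treatment together, the members called were 3 rather than 2 for LYVE1+CX3CR1+ against MHCII+CD11c- after IC, where *P2ry12* gained its call (0.89 and 0.91, adjusted p = 0.0208 and 0.0193), and the same number as without the replicate block in every other comparison these fits allow.

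Over all genes, the number called in each subset with IC moved from 49 to between 13 and 272 in LYVE1+CX3CR1+, from 112 to between 19 and 337 in MHCII+CD11c- and from 71 to between 14 and 250 in MHCII+CD11c+ macrophages. Between subsets the ranges were 750 to 1541 (1207), 1291 to 2839 (2303) and 187 to 615 (368) untreated, and 460 to 1258 (1031), 1182 to 2521 (2081) and 100 to 472 (300) after IC, with the number reported in parentheses, in the order used above. For the mean change it was 466 to 919 (655). For the differences between responses it was 0 to 20 (0), 0 to 27 (1) and 0 to 29 (1). Depth limited *Nt5e*, *P2ry14*, *Adora2a* and *Adora2b* in the smaller libraries.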
